A study of Mus musculus with 16 samples.

Results

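TRIM proteins are named for a tripartite motif, in which a RING finger, 1 or more B-box domains and a coiled coil follow each other along the chain. The RING finger makes most of them ubiquitin ligases, and the domain at the far end of the protein, often a PRY-SPRY, NHL or PHD-bromodomain module, selects what they bind. Some act in red cell formation, a closely related nuclear group regulates transcription, and a large share responds to interferon and restricts viruses. Every gene whose symbol begins with Trim and a digit was taken as a member, with no use of any measured value. This gave 54 TRIM genes among 15386 genes of the RNA-seq table and 48 among 13490 genes of the m6A table, with 47 in both and 55 in either.

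The data come from erythroid progenitors sorted from the bone marrow of adult C57BL/6 mice. RNA-seq by Smart-seq2 compared 3 libraries of control CFU-E, the colony-forming progenitors gated as lineage-negative Kit+ CD71+ cells, with 3 libraries that carry the label of *Mettl3*-deficient Kit-lo CFU-E. These are the CFU-E with low surface Kit from *Mettl3* fl/fl *EpoR* Cre/- mice, in which the *EpoR-tdTomato-Cre* allele deletes the gene of the m6A methyltransferase Mettl3 in erythroid cells and in macrophages of the erythroblastic island. A second experiment compared 2 libraries of RNA captured with an antibody to m6A (IP) with 2 libraries of the uncaptured input, all from control CFU-E. The labels call the control mice only control, and neither the pooling of animals nor the origin of the replicates is given, so that p-values measure the spread between these libraries. The RNA-seq groups differ in genotype and in the Kit gate, and these cannot be told apart here, since Kit-lo cells of control mice were not analysed. Proerythroblast samples of the series, 6 in number, were not analysed here.

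Library totals were 17429262 to 21329242 estimated counts in RNA-seq and 19421059 to 37142742 in the m6A experiment. *Mettl3* mRNA did not separate the RNA-seq groups, with 115, 123 and 130 CPM (counts scaled to a common library total) in control CFU-E and 117, 127 and 108 CPM in those labelled Kit-lo. Its gene-level count does not isolate the deleted part of the transcript, so every direction below rests on the labels. *Kit* itself was at 598 ± 47.1 CPM in control and 55.2 ± 12.4 CPM in labelled Kit-lo libraries (SD, n = 3 each). Late erythroid markers summed to 3135–3303 CPM in control and 5713–6858 CPM in labelled Kit-lo libraries, where 10 of 15 tested markers were higher and 0 lower. Besides Kit, the gate used CD71 (*Tfrc*, a late erythroid marker here, log2 -0.13), absence of CD34 (*Cd34*, an early progenitor marker here) and absence of CD41 (*Itga2b*). *Cd34* was at most 1.09 CPM in any library. The 5 early progenitor markers other than *Kit* summed to 211–239 CPM in control and 26.4–28.3 CPM in labelled Kit-lo libraries. The labelled Kit-lo libraries thus also stood at a later erythroid marker profile, and the part of this shift in the TRIM values below was not tested. In bulk samples, fewer cells of a type and less RNA per cell cannot be told apart.

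In RNA-seq, TRIM genes moved in both directions between control CFU-E and labelled Kit-lo CFU-E. Of 39 TRIM genes with enough counts to be tested, 10 were higher and 6 lower, at a fold change of at least 1.5 and an adjusted p below 0.05 in edgeR's quasi-likelihood test over 11979 genes. Among all genes tested, 12.1% were higher, 9.83% were lower and 22.0% changed in either direction. The corresponding shares of TRIM genes were 25.6%, 15.4% and 41.0%. The median absolute log2 fold change was 0.55 over the tested TRIM genes and 0.38 over all genes, while the signed medians were 0.08 and 0.01. In each of the 16 called genes, the 3 libraries of one group lay entirely above the 3 of the other. The groups were apart in 20 of the 39 tested TRIM genes (51.3%) and in 47.5% of all genes tested. The per-library plot of the called genes shows these values, and the plot of log2 fold changes shows all 39 tested genes.

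**Figure D1:**
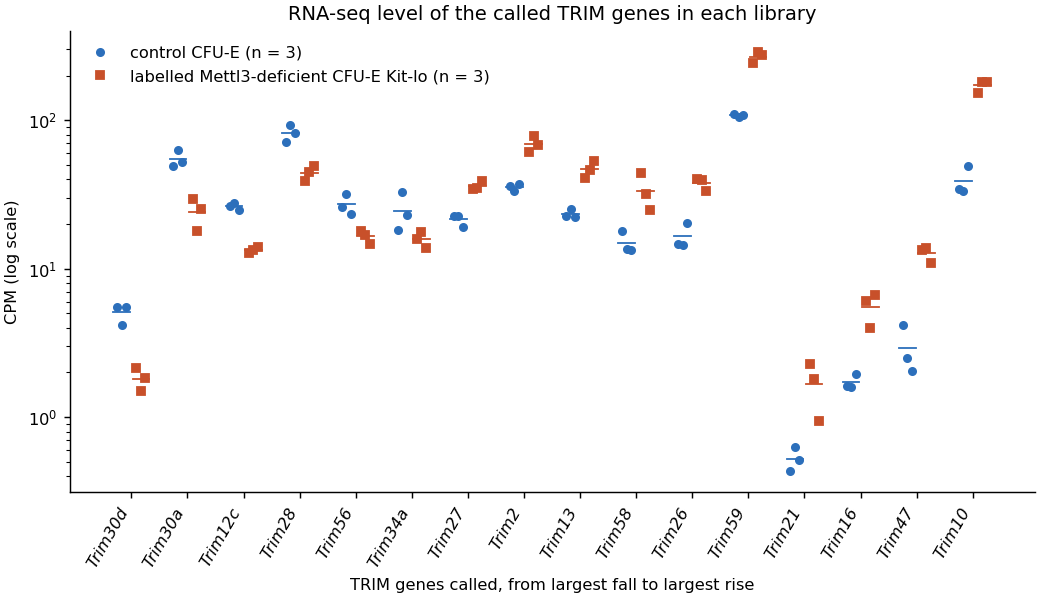
RNA-seq level of the 16 called TRIM genes in CPM (log scale). Each circle is a control CFU-E library and each square a labelled Kit-lo library (n = 3 each), with bars at the group means, and in no gene do circles and squares overlap in height.

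The erythroid TRIM genes were both higher in labelled Kit-lo cells. *Trim10*, which encodes an erythroid RING finger protein of terminal red cell differentiation, lies on chromosome 17 at chr17:36869574-36877833 (GRCm38, plus strand). Its level was 34.7, 33.6 and 49.0 CPM in the control libraries and 152, 182 and 181 CPM in the labelled Kit-lo libraries. Every labelled Kit-lo library was therefore more than 100 CPM above every control library, and the fitted change was 4.40-fold (log2 2.14, SE 0.15, adjusted p = 7.99e-06, edgeR). The log2 fold change of *Trim47*, described below, was about as large at 2.11 (SE 0.29). *Trim58*, whose product binds the motor protein dynein in late erythroblasts and promotes enucleation, was at 17.9, 13.5 and 13.5 CPM in control and 44.2, 31.7 and 24.7 CPM in labelled Kit-lo libraries. Its labelled Kit-lo libraries were the more scattered group, but the lowest of them exceeded the highest control (log2 1.16, SE 0.22, adjusted p = 0.00264). Both genes were also called in each of 13 alternative analyses, including every one that left out a library. Of 9 tested dynein subunit genes, 1 was higher and 0 were lower, against 12.1% and 9.83% of all genes tested. The higher one, *Dynlt1b* (log2 1.15), was scarce, at a mean of 1.64 CPM in control and 3.66 CPM in labelled Kit-lo libraries.

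The TIF1 genes encode nuclear TRIM proteins with a PHD finger and a bromodomain. *Trim28*, the corepressor KAP1 that KRAB zinc finger proteins recruit, was at 71.4, 93.5 and 82.4 CPM in control and 38.8, 44.9 and 49.5 CPM in labelled Kit-lo libraries. All labelled Kit-lo values were below all control values, and the gene fell to 0.54 of its control level (log2 -0.89, SE 0.13, adjusted p = 0.000701). *Trim33*, or TIF1gamma, an erythroid regulator of transcription elongation and of Smad signalling, was at 40.3, 33.6 and 41.1 CPM against 27.2, 35.3 and 28.3 CPM. Its groups overlapped through 1 library on each side, and it did not pass the test (log2 -0.34, SE 0.15, adjusted p = 0.10). *Trim24*, a coregulator of nuclear receptors, was scarce at 4.21, 4.98 and 8.13 CPM in control and 3.69, 4.95 and 5.27 CPM in labelled Kit-lo libraries (log2 -0.31, adjusted p = 0.50). Of 19 tested genes for TIF1 partners, such as HP1 proteins, histone deacetylases and elongation factors, 2 were higher and 2 were lower. Over all genes tested, 12.1% were higher and 9.83% were lower. The 2 higher partner genes were *Chd3* (log2 1.22) and *Cdk9* (log2 0.73). The 2 lower ones were *Supt5* (log2 -0.59), a subunit of the elongation factor DSIF, and *Hdac2* (log2 -1.02), a histone deacetylase.

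**Figure D2:**
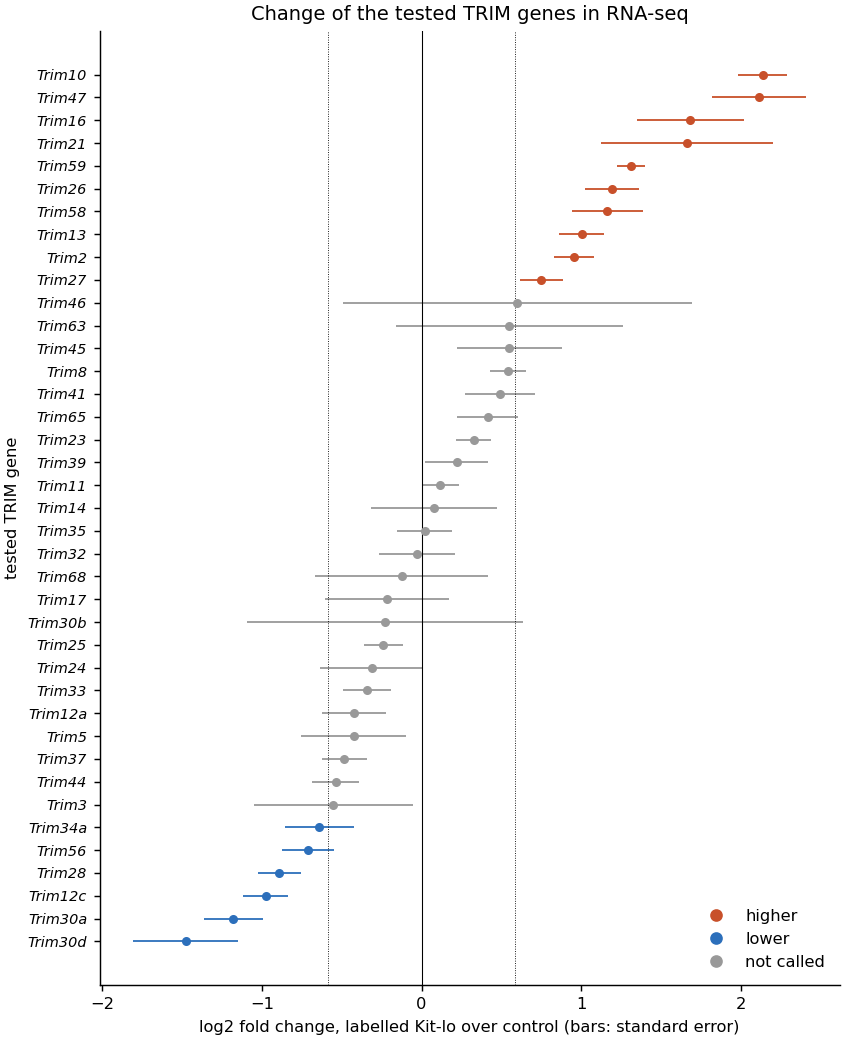
The log2 fold change of each of the 39 tested TRIM genes, labelled Kit-lo over control CFU-E, with bars for the standard error and dotted lines at a fold change of 1.5 in either direction. *Trim10* lies at the top at 2.14 and *Trim30d* at the bottom at -1.48, with 10 genes called higher, 6 lower and 23 not called.

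Of the 6 lower TRIM genes, 4 lie in a single cluster on chromosome 7. This cluster holds 9 TRIM genes in 289.1 kb (chr7:104218793-104507849, GRCm38), in the order *Trim6*, *Trim34a*, *Trim5*, *Trim12a*, *Trim34b*, *Trim12c*, *Trim30b*, *Trim30a* and *Trim30d*. It is the rodent counterpart of the region that holds the human retroviral restriction factor TRIM5. Most of its members carry PRY-SPRY domains, and the cluster is known for interferon-responsive genes. The promoters of the cluster were searched for the core of the interferon-stimulated response element, taken as GAAA, any 2 bases and GAAA again, on both strands, in RefSeq windows (GRCm38.p6) that run from 250 bases before a gene's start to 50 bases after it. A match stood in 6 of the 9 cluster genes and in 3 of 33 other TRIM genes with a window (*Trim21*, *Trim26* and, at an internal start, *Trim2*), against 3.44% of 32851 promoters of all genes. The last share counts single promoters, while a TRIM gene with several windows counted once if any of them matched. Of these 9 TRIM genes with a match, 3 were higher and 4 lower in labelled Kit-lo libraries, against 12.1% and 9.83% of all genes tested. The 3 higher ones were *Trim2*, *Trim21* and *Trim26*, and a link between the motif and the changes was not tested. Stretches of 30 bases around the first match are shown for the cluster genes, on which the text below turns, and for *Trim21* and *Trim26*. They read 5′ to 3′ on the strand of the gene with the matched letters in capitals, and all but that of *Trim21* hold the motif in its reverse complement:
Trim34a: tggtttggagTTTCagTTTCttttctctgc
Trim5: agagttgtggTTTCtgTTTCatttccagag
Trim12a: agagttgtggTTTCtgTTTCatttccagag
Trim12c: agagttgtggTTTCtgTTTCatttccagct
Trim30a: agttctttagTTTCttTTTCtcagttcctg
Trim30d: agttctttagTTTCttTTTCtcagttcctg
Trim21: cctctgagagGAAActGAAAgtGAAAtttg
Trim26: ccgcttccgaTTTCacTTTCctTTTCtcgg

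The *Trim34a* window is chr7:104244457-104244486 on the plus strand. Those of *Trim5* (chr7:104288136-104288165), *Trim12a* (chr7:104315466-104315495), *Trim12c* (chr7:104353359-104353388), *Trim30a* (chr7:104465210-104465239) and *Trim30d* (chr7:104507871-104507900) are on the minus strand. The *Trim21* window is chr7:102565450-102565479 on the minus strand and the *Trim26* window chr17:36836976-36837005 on the plus strand. The windows of *Trim5* and *Trim12a* were identical over all 30 bases, as were those of *Trim30a* and *Trim30d*, and *Trim12c* shared 28 of 30 bases with *Trim5*. *Trim30a* has a second RefSeq start with a match of its own.

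The members of the cluster that could be tested, 7 of 9, all had log2 fold changes below 0, with a median of -0.64, against 0.01 over all genes. Of 11979 genes tested, 6063 were above 0 and 9.83% were called lower, against 4 called lower of these 7. The 7 genes are not separate observations, since some share sequence, as given below. *Trim30a*, a negative regulator of NF-kappaB signalling and the most abundant member, was at 49.2, 63.5 and 52.3 CPM in control and 29.5, 18.1 and 25.3 CPM in labelled Kit-lo libraries. *Trim30d* was at 5.51, 4.18 and 5.55 CPM against 2.13, 1.51 and 1.83 CPM. *Trim12c* was at 26.4, 27.5 and 24.9 CPM against 12.7, 13.4 and 14.0 CPM. In these 3 genes the groups were clearly apart, with log2 fold changes of -1.18 (SE 0.18, adjusted p = 0.000861), -1.48 (SE 0.33, adjusted p = 0.00603) and -0.98 (SE 0.14, adjusted p = 0.000549), and each was called in all 13 alternatives. *Trim34a* was at 18.2, 32.7 and 23.1 CPM against 15.9, 17.6 and 13.9 CPM, and the highest labelled Kit-lo library lay only just below the lowest control (log2 -0.64, adjusted p = 0.0435). Its call was lost under 6 of 13 alternatives: leaving out control replicate 2, where the log2 fold change was -0.39 (adjusted p = 0.19), control replicate 3 or any one labelled Kit-lo replicate (adjusted p = 0.067 to 0.10), and with library size as the only scaling (adjusted p = 0.072). *Trim12a* and *Trim5* were both at log2 -0.42 with overlapping groups, *Trim30b* was close to the detection limit, and *Trim6* and *Trim34b* were not tested.

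Sequence shared between the copies limits how far reads can be assigned to one of them. Of the 31-base words in its exons, *Trim34a* shares 68.5% with other genes, *Trim5* 53.3%, *Trim12c* 48.1%, *Trim12a* 16% and *Trim30a* and *Trim30d* 11.9% each. The split of counts between *Trim5* and *Trim12c*, and between *Trim34a* and *Trim34b*, is therefore uncertain. *Trim34a* also overlaps an antisense gene over 23.5% of its exonic bases, and whether counting used strand is not given. The beta-globin genes *Hbb-bs* and *Hbb-bt* lie 391 and 405 kb from the cluster and were higher in labelled Kit-lo libraries (log2 6.84 and 6.42). The cluster and the beta-globin genes of the same chromosome thus had opposite signs.

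**Figure D3:**
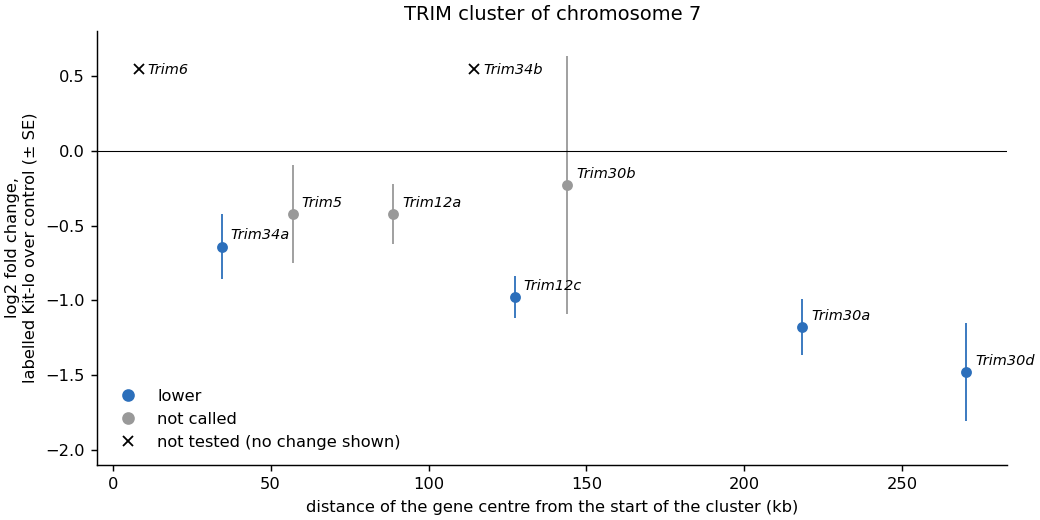
The log2 fold change (labelled Kit-lo over control, with standard errors) of the TRIM genes of the chromosome 7 cluster, by the distance of the gene centre from the start of the cluster in kb. All 7 tested genes lie below 0, 4 of them called lower, and crosses mark *Trim6* and *Trim34b*, which were not tested and have no value.

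Outside the cluster, other TRIM genes of innate immunity went in both directions. *Trim56*, which promotes signalling from cytosolic DNA, was at 26.1, 31.9 and 23.5 CPM in control and 18, 17 and 14.8 CPM in labelled Kit-lo libraries (log2 -0.71, SE 0.16, adjusted p = 0.00752). It was the 1 gene of the 6 lower ones besides *Trim28* that lies outside the cluster. *Trim26*, a ligase that acts on interferon signalling, was at 14.7, 14.5 and 20.2 CPM in control and 40.0, 39.6 and 33.4 CPM in labelled Kit-lo libraries (log2 1.19, SE 0.17, adjusted p = 0.000454). It lies 10.2 kb from *Trim10* on chromosome 17, so that these neighbours were both higher, while *Trim15* between them was too low to be tested. *Trim27*, a nuclear and cytoplasmic ligase first found as a fusion partner of RET, was at 22.7, 22.8 and 19.1 CPM against 34.6, 35.2 and 38.9 CPM (log2 0.75, SE 0.13, adjusted p = 0.00196).

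*Trim21*, the cytosolic antibody receptor, was near the detection limit, at 0.43, 0.63 and 0.52 CPM in control and 2.29, 1.80 and 0.94 CPM in labelled Kit-lo libraries. Its log2 fold change of 1.67 (SE 0.54, adjusted p = 0.0365) rests on as few as 9 counts in a library. The call was lost without any one control replicate, without labelled Kit-lo replicate 1 or without labelled Kit-lo replicate 2 (adjusted p = 0.084 to 0.13). It was also lost with a replicate block (adjusted p = 0.083) and with no low-count filter (adjusted p = 0.052). The abundant *Trim25*, which activates the RNA sensor RIG-I, was at 105 ± 8.65 CPM in control and 89.3 ± 13.6 CPM in labelled Kit-lo libraries (SD, n = 3 each) and did not pass the test. *Trim65*, *Trim14* and *Trim68* did not pass it either, at log2 0.41, 0.08 and -0.13.

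Of the TRIM genes grouped as innate immune, 15 were tested, with 3 higher and 5 lower. Over all genes tested, 12.1% were higher and 9.83% lower. Of the 5 lower genes, 4 are those of the chromosome 7 cluster, so this count is not separate from the cluster result. The 3 higher ones include *Trim21*, whose call was lost under the alternatives named above. Of 25 tested interferon-response genes outside the family, 6 were higher and 3 lower, with a median log2 fold change of 0.03 and sums of 978–1048 CPM in control and 1019–1283 CPM in labelled Kit-lo libraries. *Mavs* (log2 0.86), an adaptor of RNA sensing, and *Oasl1* (log2 0.80) were higher, whereas *Ifih1* (log2 -0.84), an RNA sensor, was lower. The called genes of this list went in both directions, and any part of interferon signalling in the chromosome 7 cluster values was not tested. Macrophage markers summed to 22.4–27.5 CPM in control and 12.6–16.0 CPM in labelled Kit-lo libraries, with 2 of 6 tested markers lower (*Cd163* and *C1qa*) and none at 0 in every library. Of 4 granulocyte markers tested, *Ngp* was higher and *Mpo* lower, and of 4 megakaryocyte markers tested, *Itga2b* (log2 1.62) and *Gp9* (log2 1.31) were higher and 0 were lower. Lymphocyte markers summed to at most 4.18 CPM, and none was tested. The part of these other cells in the immune TRIM values was not tested.

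Of the TRIM genes grouped here under the cell cycle, p53 or cell growth, 7 were tested, with 2 higher and 0 lower. Over all genes tested, the shares were 12.1% and 9.83%. Each gene was placed in 1 group, so the TIF1 genes, among them the lower *Trim28*, were not counted here. *Trim59*, a membrane-anchored TRIM protein linked to proliferation, was at 110, 105 and 109 CPM in control and 243, 287 and 273 CPM in labelled Kit-lo libraries. The labelled Kit-lo libraries were 2.48-fold higher (log2 1.31, SE 0.09), with the smallest adjusted p of the family at 5.92e-06. *Trim13*, a ligase of the endoplasmic reticulum that acts on p53 turnover, was at 22.5, 25.2 and 22.2 CPM against 40.8, 46.0 and 53.2 CPM (2-fold higher, log2 SE 0.14, adjusted p = 0.000423). Of its 31-base words 28.7% recur in the gene *Gm9359*, so that its count is less certain than that of *Trim59*, for which the share is 10.9%. *Trim8* was separated between the groups (42.6 ± 2.09 and 62.1 ± 4.86 CPM, SD, n = 3 each, adjusted p = 0.00395) but was 1.46-fold higher and so below the fold threshold. *Trim37*, which limits centriole assembly, was likewise separated but below the threshold, at 249, 239 and 248 CPM in control and 132, 192 and 202 CPM in labelled Kit-lo libraries (log2 -0.48, adjusted p = 0.0231). Without labelled Kit-lo replicate 3, *Trim37* was called lower (log2 -0.59), and without replicate 2 of that group *Trim8* was called higher (log2 0.61). *Trim35*, *Trim39* and *Trim45* were at log2 0.02, 0.22 and 0.55 with overlapping groups.

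The other called genes were all higher. *Trim2*, an NHL-repeat ligase known for the turnover of neurofilaments, was at 36.0, 33.5 and 37.3 CPM in control and 60.7, 78.5 and 68.3 CPM in labelled Kit-lo libraries (log2 0.96, SE 0.13, adjusted p = 0.000297). *Trim47* was at 4.17, 2.52 and 2.06 CPM against 13.3, 13.9 and 10.9 CPM (log2 2.11, SE 0.29, adjusted p = 0.000424). *Trim16*, which takes part in the autophagy of damaged lysosomes, was at 1.63, 1.60 and 1.95 CPM against 6.03, 3.98 and 6.68 CPM (log2 1.68, SE 0.34, adjusted p = 0.00348). *Trim47* and *Trim16* thus had large fold changes at low levels, with no overlap between groups. *Trim47* overlaps its neighbour *Trim65* over 5365 bases on the same strand and shares 7.27% of its 31-base words with it, while *Trim65* was not called. *Trim44*, which lacks a RING finger, passed the p threshold but not the fold threshold (log2 -0.54, adjusted p = 0.0165), and was called lower without control replicate 1 (log2 -0.62) or labelled Kit-lo replicate 1 (log2 -0.59). *Trim23*, which carries an ARF GTPase domain, was in the same position with a log2 fold change of 0.33 (adjusted p = 0.0429). *Trim41* was at log2 0.49 (adjusted p = 0.12) and was called higher only without labelled Kit-lo replicate 3 (log2 0.65).

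Between genes, levels were compared as CPM per kb of all annotated exons of the gene. In control CFU-E the order began with *Trim37* (mean 34.0, range 33.1–34.5 CPM per kb) and *Trim59* (32.2, range 31.4–32.8), which did not overlap. They were followed by *Trim35* (21.7), *Trim28* (19.8), *Trim25* (18.3), *Trim11* (18.1) and *Trim10* (17.4), each of whose ranges overlapped that of the next. In labelled Kit-lo libraries *Trim59* (79.9, range 72.4–85.8) and *Trim10* (76.6, range 67.7–81.2) led the order and did not differ beyond their spread. *Trim13* followed at 28.3 CPM per kb (range 24.7–32.3), so that the leading pair stood apart from the rest of the family. *Trim28* moved from rank 4 to rank 10. The order depends on the length used: per kb of the annotated transcript, an alternative chosen after seeing the data, *Trim37* and *Trim59* still led in control and *Trim11* rose from rank 6 to rank 3. Of 54 TRIM genes in the table, 15 were too low to be tested, with at most 28 counts in any library. They are *Trim6*, *Trim7*, *Trim9*, *Trim15*, *Trim34b*, *Trim36*, *Trim43a*, *Trim43b*, *Trim43c*, *Trim50*, *Trim52*, *Trim62*, *Trim67*, *Trim69* and *Trim72*. Of the COS-box genes, which bind microtubules, only *Trim46* and *Trim63* were tested, both at or below 1.51 CPM in every library. Among 6 TRIM proteins that go by other symbols, 2 were tested, of which *Mid1* was lower (log2 -2.28) and *Pml* was not called (log2 0.13).

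In the m6A experiment, 39 TRIM genes were tested for a difference between IP and input of control CFU-E. An adjusted p below 0.05 with a positive log2 ratio was found for 2 of them, or 5.13%, against 7.90% of 11447 genes. A negative one was found for 4, or 10.3%, against 7.86% of all genes. IP and input values were apart in 24 of the 39 TRIM genes (61.5%), much like the 60.9% of all genes. The smallest adjusted p among the 33 genes not called was 0.0507. IP over input measures how much of a transcript the antibody recovered relative to other transcripts, not the number or place of methylated bases.

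*Trim33* and *Trim41* were the TRIM genes enriched in IP. *Trim33* was at 5.20 and 5.56 CPM in input and 22.5 and 16.1 CPM in IP, which is 3.59-fold (log2 1.84, SE 0.29, adjusted p = 0.00224, edgeR). *Trim41*, a ligase that binds protein kinase C, was at 5.82 and 5.68 CPM in input and 16.4 and 16.9 CPM in IP (log2 1.53, SE 0.27, adjusted p = 0.00418). In both genes the lower IP library exceeded the higher input library by more than 10 CPM, and both were enriched under all 11 alternatives. The other TIF1 genes did not pass the test. *Trim28* was at 53.3 and 44.1 CPM in input and 66.9 and 57.5 CPM in IP (log2 0.35, adjusted p = 0.32), and *Trim24* at 5.11 and 3.32 CPM against 7.60 and 3.82 CPM (log2 0.45, adjusted p = 0.47). Of 19 genes for TIF1 partners, 3 were higher in IP and 3 were lower. The 3 higher ones were *Atf7ip* (log2 1.99), a cofactor of the methyltransferase SETDB1, and *Cbx3* (log2 1.92) and *Cbx5* (log2 0.81), which encode HP1 proteins. The 3 lower ones were *Cdk9* (log2 -4.09), *Hdac2* (log2 -2.72) and *Hdac1* (log2 -0.72).

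**Figure D4:**
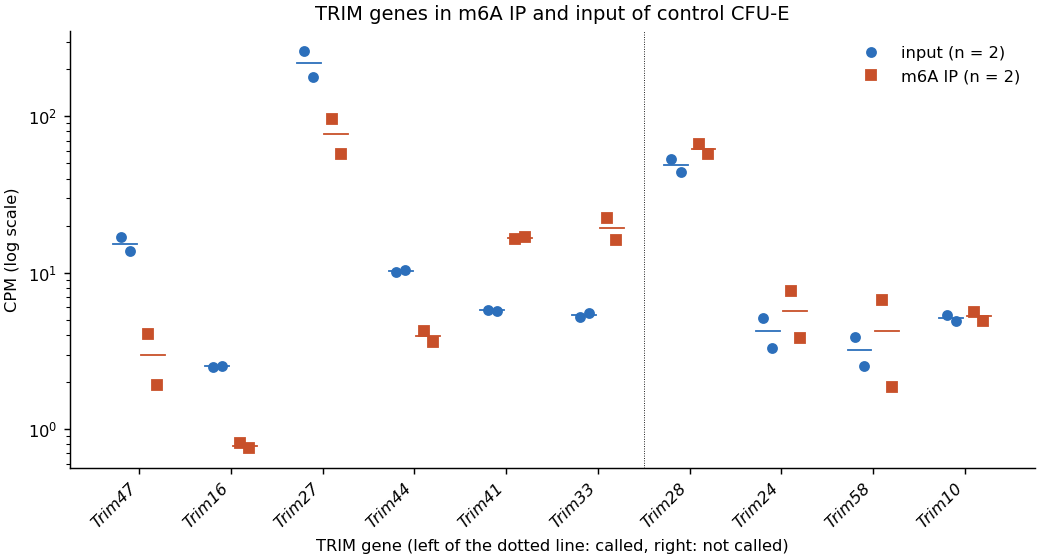
Level in CPM (log scale) of the 6 TRIM genes called in m6A IP over input, left of the dotted line, and of the remaining TIF1 and erythroid genes, right of it. Circles are input and squares IP libraries of control CFU-E (n = 2 each) with bars at the means: squares lie above circles for *Trim33* and *Trim41* and below them for *Trim47*, *Trim16*, *Trim27* and *Trim44*.

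The erythroid genes showed no enrichment that passed the test. *Trim10* was at 5.33 and 4.95 CPM in input and 5.63 and 4.92 CPM in IP, so that the libraries overlapped (log2 0.04, SE 0.31, adjusted p = 0.94). *Trim58* was at 3.88 and 2.53 CPM in input, while its IP libraries, at 6.69 and 1.86 CPM, lay on either side of the input (log2 0.44, SE 0.53, adjusted p = 0.61). With 2 libraries a group, *Trim23* at log2 1.29 (SE 0.43) and *Trim34a* at log2 1.13 (SE 0.35) did not pass the test either, so that ratios of this size could be missed. Of 11 alternatives, *Trim34a* was enriched in 6 and *Trim23* in 3.

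The 4 genes that were lower in IP were *Trim47*, *Trim16*, *Trim27* and *Trim44*. *Trim47* was at 16.9 and 13.8 CPM in input and 4.05 and 1.91 CPM in IP (log2 -2.33, SE 0.37, adjusted p = 0.00233). *Trim27* was at 261 and 178 CPM in input and 96.2 and 57.2 CPM in IP (log2 -1.52, SE 0.29, adjusted p = 0.00714). *Trim27* was the most abundant TRIM gene of this experiment, and in both genes input and IP were well apart. *Trim16* was at 2.51 and 2.53 CPM in input and 0.82 and 0.75 CPM in IP (log2 -1.67, SE 0.44, adjusted p = 0.0306). *Trim44* was at 10.1 and 10.3 CPM in input and 4.22 and 3.62 CPM in IP (log2 -1.38, SE 0.29, adjusted p = 0.0118). Without input replicate 1, *Trim47* was the 1 gene still called lower, and *Trim27* (adjusted p = 0.062), *Trim44* (adjusted p = 0.066) and *Trim16* (adjusted p = 0.16) missed the threshold. *Trim16* also missed it without input replicate 2, without IP replicate 1 or with library size as the only scaling (adjusted p = 0.061 to 0.11). Without IP replicate 2, *Trim23* (log2 1.68), *Trim32* (log2 1.75) and *Trim34a* (log2 1.28) were enriched as well, which made 5 enriched genes. Without IP replicate 1, *Trim11* (log2 -1.16) and *Trim12a* (log2 -1.23) were also lower, which gave 5 lower genes with *Trim16* lost. Of all 11 alternatives, *Trim12a* was called lower in 5 and *Trim11* in 4, and *Trim16* kept its call in 7.

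Transcript structure was read from the GENCODE annotation of GRCm38. The longest exon was 5079 bases in *Trim33* and 1511 in *Trim41*, against medians of 2036 bases over all genes higher in IP, 1375 over all genes tested and 1155 over those lower in IP. It was 890 bases in *Trim47*, 2545 in *Trim16*, 2695 in *Trim27* and 4386 in *Trim44*, so that 3 of the 4 TRIM genes lower in IP exceeded the median of the enriched genes. GGACT, a common form of the m6A consensus, occurred 5 times in the *Trim33* transcript (0.56 per kb) and 4 times in that of *Trim41* (1.17 per kb). It occurred once in *Trim47* and *Trim16*, 3 times in *Trim27* and 6 times in *Trim44* (0.45, 0.26, 0.70 and 1.07 per kb), against medians of 1.03 per kb over all genes, 0.95 over genes higher in IP and 1.08 over genes lower in IP. The density of GGACT did not set the enriched TRIM genes apart from *Trim44*.

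The 2 comparisons shared no library, and 38 TRIM genes were tested in both. Of the 4 genes lower in IP, *Trim47*, *Trim16* and *Trim27* were higher in labelled Kit-lo cells, which is 75% of 4 genes against 17.3% of 833 genes lower in IP. The count is too small to call this particular to the family. Neither *Trim33* nor *Trim41*, the genes enriched in IP, was called in RNA-seq, while 10.3% and 10.2% of 864 enriched genes of the whole table were higher and lower there. Across the 38 genes the log2 fold changes of the comparisons had a Spearman coefficient of -0.17 and a Pearson coefficient of -0.28, and across 10773 genes of -0.03 for each. These are coefficients across genes, which are not independent replicates, and base composition and length may be shared between the points. *Trim10* and *Trim30d*, at the ends of the RNA-seq order, had no called difference between IP and input.

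**Figure D5:**
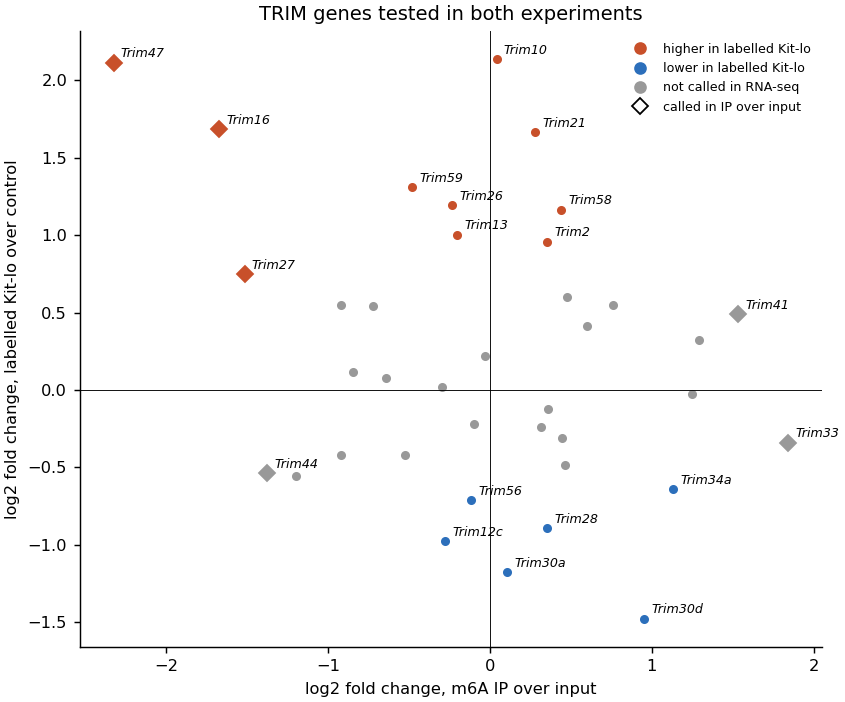
The log2 fold change of 38 TRIM genes in IP over input (horizontal) and in labelled Kit-lo over control CFU-E (vertical), coloured by the RNA-seq call, with diamonds for genes called in IP over input. *Trim47*, *Trim16* and *Trim27* lie at the upper left, lower in IP and higher in labelled Kit-lo cells, and *Trim33* and *Trim41* lie at the right without an RNA-seq call.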

How the data were processed

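Estimated counts per gene were deposited by the authors, who trimmed reads (fastp 0.23.4), quantified them against the mm10 transcriptome (kallisto 0.48.0) and summed them to genes with tximport. Tool versions are from the submitters' processing notes. Smart-seq2 cDNA was primed with oligo-dT. The m6A libraries carry molecular identifiers, and whether these were used in counting is not given in the sources used here, nor is strand. All deposited values were whole. RNA-seq and m6A tables were normalized and tested separately with edgeR 4.0.16 (TMM, filterByExpr, quasi-likelihood F-test, Benjamini-Hochberg over all genes tested) in R 4.3.3. CPM values use TMM-scaled library sizes, and SD is over libraries. A gene was called in RNA-seq at a fold change of at least 1.5 and an adjusted p below 0.05, and in the m6A comparison at an adjusted p below 0.05. On simulated counts with 200 genes changed 4-fold, 200 were recovered with 13 false calls for RNA-seq (11818 genes) and 198 with 5 false calls for m6A (11210 genes). Biological coefficients of variation were 19.1% and 21.9%. Alternatives were DESeq2 1.42.0, other scalings, filters and thresholds, a replicate block and leaving out each library.

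Per-library values are given for members called in either comparison and for the erythroid and TIF1 genes. Membership follows from the gene symbol alone, but the choice of this family, the gene lists and the motifs were made with earlier results of these data known. Shared 31-base words, exon lengths and GGACT counts came from GENCODE (GRCm38, 55 of 55 members found) and promoters from RefSeq (42 of 55 members matched).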

Additional observations from a re-analysis of the deposited data

How the results depend on the processing

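The count of changed TRIM genes in RNA-seq (16) was 14 to 17 under 13 alternatives that kept the fold threshold, among them 15 with a replicate block, and 20 with no fold threshold. In the m6A comparison, the 2 enriched TRIM genes became 4 with upper quartile scaling and 4 with a replicate block, and 2 to 5 when single libraries were left out. The 4 lower ones became 7 with DESeq2 and 7 with a replicate block, and 1 to 5 when single libraries were left out. Library size alone and upper quartile scaling moved the median m6A log2 ratio of all genes by 0.16 and 0.13. The causes were not tested. Same-numbered libraries deviated together weakly (r = 0.21 in m6A, 0.03, -0.02 and -0.07 in RNA-seq), and the labels do not pair them.

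Signs changed only for TRIM genes that were not called. In RNA-seq, *Trim32* was at 0.034 with library size alone, and *Trim35* at -0.016 with upper quartile scaling and -0.0072 with a replicate block. In IP over input, *Trim10* was at -0.0016 with DESeq2 and -0.0014 with its size factors in edgeR, and *Trim46* at -0.074 with a replicate block. With library size alone and with upper quartile scaling, *Trim17* was at 0.065 and 0.027, *Trim39* at 0.14 and 0.091, and *Trim56* at 0.036 and 0.011. Leaving out single libraries in RNA-seq gave ranges of -0.075 to 0.21 for *Trim14*, -0.50 to 0.0067 for *Trim24*, -1.51 to 0.27 for *Trim30b*, -0.29 to 0.22 for *Trim32*, -0.20 to 0.22 for *Trim35*, -0.73 to 1.72 for *Trim46* and -0.80 to 0.24 for *Trim68*. In IP over input they were -0.081 to 0.13 for *Trim10*, -0.017 to 0.85 for *Trim2*, -0.17 to 0.84 for *Trim24*, -0.30 to 0.72 for *Trim25*, -0.20 to 0.34 for *Trim30a*, -0.31 to 0.18 for *Trim39*, -6.31 to 1.32 for *Trim46*, -0.99 to 0.077 for *Trim5*, -0.81 to 1.05 for *Trim58* and -0.050 to 0.95 for *Trim68*. Of the alternative values of single genes, 843 kept direction and side of the threshold, 27 crossed it upwards, 19 lost it and 39 changed sign. At this depth 15 TRIM genes in RNA-seq and 9 in the m6A experiment had too few counts to be tested.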

Other observations

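Input and RNA-seq libraries of control CFU-E came from different library methods and were normalized separately, so their levels are set side by side without a test. *Trim27* was at 220 CPM in input and 21.5 CPM in RNA-seq, a ratio of 10.2 that lies at percentile 96.9 of 10773 genes on the log2 scale with 1 CPM added. *Trim37*, *Trim32* and *Trim23* were the reverse, with input at 0.053, 0.031 and 0.043 of the RNA-seq level, all below percentile 5. The median log2 ratio was -0.53 over all these genes and -1.05 over 38 TRIM genes. *Trim47* was at 15.3 CPM in input and 2.91 CPM in RNA-seq, a ratio of 5.26 at percentile 91.4. *Trim27* and *Trim47* were both lower in IP than in input, and the part of their high input levels in that result was not tested. The other genes lower in IP, *Trim16* and *Trim44*, had ratios of 1.46 and 0.41.

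AGATAA, a motif of GATA factors, was found on either strand in a promoter window of 4 of 42 TRIM genes, against 11.2% of all promoters. CCNCNCCC, a motif of KLF factors (N is any base), was found in 22 of 42, against 49.5% of all promoters. Genes with several windows are here set against single promoters.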
